A study of Saccharomyces cerevisiae with 47 samples.

Results

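Reb1 sites listed in 5 rows are positions in a deposited list of yeast Reb1 motif sites whose identical chromosome, start, end and strand occurred 5 times, the highest number found. There were 215 of them among 942 distinct Reb1 sites. The others occurred in 1 row (171 sites), 2 rows (250), 3 rows (162) or 4 rows (144). The members were thus chosen by a value read from the deposited list, the row count, which is described here without a test. The labels do not say what a repeated row stands for. The sites in 1 row served as the contrast for every test below.

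Reb1 is an essential sequence-specific DNA-binding protein of budding yeast and belongs to the general regulatory factors, which bind promoters and help to keep nucleosomes off them. It also binds in the ribosomal DNA, where it takes part in ending transcription by RNA polymerase I, and at natural sites close to telomeres. Abf1 is another general regulatory factor, with a different recognition sequence. ATP-dependent remodelers such as INO80, ISW2, Chd1 and RSC slide or remove nucleosomes and can set nucleosome arrays against a bound factor.

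The series held 47 samples (24 pulldowns, 23 inputs) and no group had more than 2 replicates. Chromatin was made by salt gradient dialysis from plasmid library DNA of Saccharomyces cerevisiae and recombinant yeast histone octamers, so no cells were present. Reb1 carrying a C-terminal Strep-tag II was added at 50 nM. The reaction then held no remodeler, or 1 of INO80, ISW2 and Chd1 at 24 nM or RSC at 12 nM, and controls had neither factor nor remodeler. All reactions were crosslinked with 0.05% formaldehyde and cut with micrococcal nuclease, bound DNA was captured on Strep-Tactin beads, and Abf1 was treated in the same way in its own pulldowns. The pulldown tracks used fragments of 38 to 90 bp. The site lists named no sample, so they carry no information on depth, on replicates or on what a remodeler changed. The 95% intervals are exact for shares and cover counting error over sites only.

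The members spanned every score in the list, from 11.1 to 14.3. The score was deposited without a definition and is a number per site that fell down the list. Its median was 12.6 (interquartile range 11.9 to 13.4) for sites in 5 rows, 12.6 (11.8 to 12.9) in 4 rows and 11.9 (11.6 to 12.6) in 1 row. The 942 sites shared 27 score values, and the share in 5 rows did not follow the score steadily. At the top score of 14.3, 21 of 39 sites (53.8%, 37.2 to 69.9) were in 5 rows and 3 were in 1 row. At the next score, 13.7, 8 of 67 (11.9%, 5.30 to 22.2) were in 5 rows. At 12.3 the number was 2 of 45 (4.44%, 0.543 to 15.1), and at the low score of 11.3448 it was 7 of 18 (38.9%, 17.3 to 64.3). A high score was thus neither needed for 5 rows nor enough for them.

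**Figure D1:**
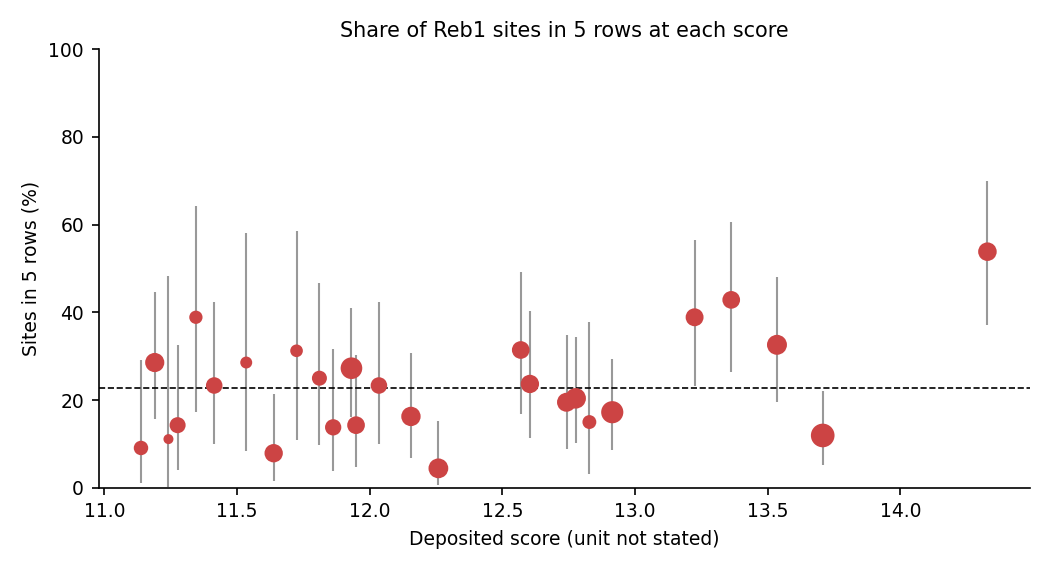
Share of Reb1 sites listed in 5 rows (%, y axis) at each deposited score (x axis, unit not stated), with 95% exact binomial intervals. Point area grows with the number of sites at that score, the dashed line is the share among all 942 sites, and the top score stands at 53.8% beside 11.9% at the next one.

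Of the 21 members with the top score, 17 lay within 500 bp upstream of a protein-coding gene. Of the other 4, 1 was inside HIS5 and 3 lay between genes, on chromosomes VII and XVI. Between tandem genes the 17 included a site 143 bp before the start codon of TAF2, a subunit of the general transcription factor TFIID (chromosome III, 205536 to 205545 on the R64 build). Another lay 224 bp before MOT2, a subunit of the CCR4-NOT mRNA deadenylase complex (V, 292822 to 292831). A further one lay 135 bp before TUB4, which encodes gamma-tubulin (XII, 566412 to 566421), and another 153 bp before RPL15B, a ribosomal protein gene of the large subunit (XIII, 510497 to 510506). In divergent promoters they included sites 180 bp before RPT5, a proteasome ATPase gene (XV, 544845 to 544854), and 187 bp before YTM1, a ribosome biogenesis gene (XV, 832622 to 832631). Both TIM44 (233 bp; IX, 310928 to 310937) and TIM23 (385 bp; XIV, 662524 to 662533), components of the mitochondrial import machinery, had one. The same held for STE18 (140 bp), the gamma subunit of the pheromone-response G protein, NDI1 (196 bp), the internal mitochondrial NADH dehydrogenase, and PXR1 (131 bp), which acts in RNA processing in the nucleolus.

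The same top score was also found with 1 row, upstream of PDE1, a cAMP phosphodiesterase gene (424 bp), YLR162W (76 bp) and COX14 (112 bp), an assembly factor of cytochrome c oxidase. The next sites of that class, at 13.7, lay before MRP10 (146 bp), MRP8 (242 bp), FMP42 (119 bp) and PET111 (477 bp), a translational activator of the mitochondrial COX2 mRNA. At the other extreme of the members, a score of 11.1 with 5 rows was found 372 bp before ACT1, the actin gene, and inside TSL1, which encodes a subunit of the trehalose synthase complex. MAK16, a ribosome biogenesis gene, had a member with a score of 11.2 at 168 bp. These lists of named sites describe the range and carry no test.

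Sites in 5 rows lay between genes more often than sites in 1 row. Their centre was in no protein-coding gene for 187 of 215 sites (87.0%, 81.7 to 91.2), against 107 of 171 (62.6%, 54.9 to 69.8) in 1 row. The difference was 24.4 percentage points (15.8 to 32.8; odds ratio 3.98, 2.35 to 6.87; two-sided Fisher's exact test with Benjamini-Hochberg adjustment over 9 comparisons, p = 1.67e-07). The share in 2, 3 and 4 rows was 76.4%, 74.7% and 77.8%, so sites just below the row limit lay between the classes compared. With sites compared at identical score over 27 strata, the odds ratio was 2.65 (conditional exact Cochran-Mantel-Haenszel test, adjusted over 2 comparisons, p = 0.00294). That call was lost when only the highest-scoring site of each group was kept (odds ratio 1.57, conditional exact adjusted p = 0.377). Groups joined sites with gaps of at most 500 bp, and 167 sites in 5 rows and 165 in 1 row were left.

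Gaps between divergent genes held a larger part of the members. They were counted at any distance from a start codon, so not all such sites lay within 500 bp upstream of a gene. A site was called divergent when the genes on both sides pointed away from it, and 98 of 215 members (45.6%, 38.8 to 52.5) were, against 43 of 171 sites in 1 row (25.1%, 18.8 to 32.3). The difference was 20.4 points (10.9 to 29.4; odds ratio 2.49, 1.58 to 3.97; Fisher's exact test, adjusted p = 9.97e-05). The shares in 2, 3 and 4 rows were 33.2%, 38.3% and 38.9%. These counts take each site of a group of nearby sites separately. With sites that had another Reb1 site within 500 bp left out, the difference was 14.0 points (Fisher's exact test, adjusted p = 0.0213). Between tandem genes, which point the same way, the shares were 39.1% and 36.3% (difference 2.81 points, -6.92 to 12.4; exact adjusted p = 0.598), so no difference was detected there. Convergent gaps, where genes end towards each other, held 4 members and 2 sites in 1 row. The intergenic gap around a member had a median length of 749 bp (interquartile range 457.5 to 1090.25), against 610 bp (379.5 to 1105) in 1 row.

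**Figure D2:**
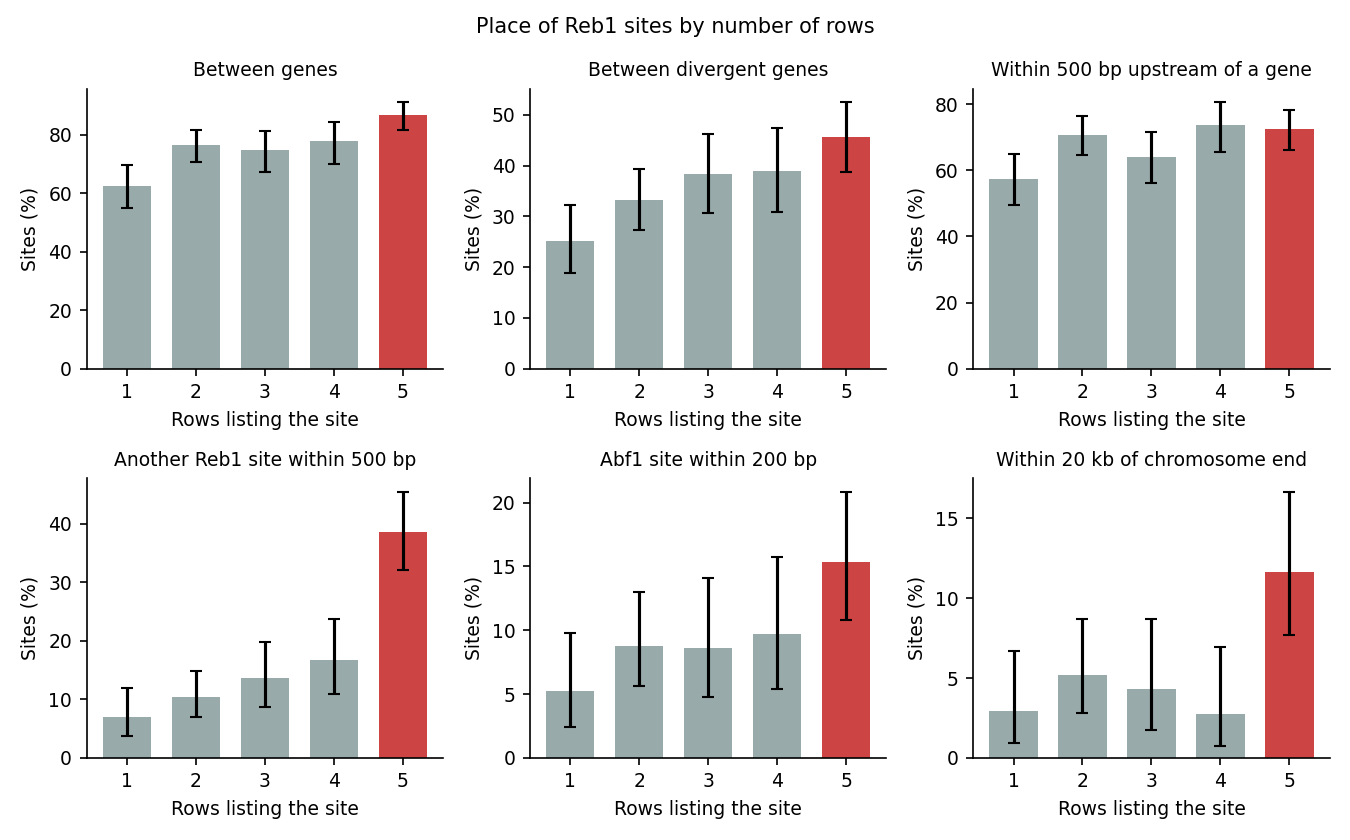
Share of Reb1 sites (%, y axes) in 6 kinds of position by the number of rows listing the site (x axes), with 95% exact binomial intervals and the 5-row class in red. The share with another Reb1 site within 500 bp stood at 38.6% in 5 rows and at 7.02% to 16.7% in the other classes.

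Promoter positions were common in both classes and more so among the members. A protein-coding start codon lay within 500 bp downstream of 156 of 215 members (72.6%, 66.1 to 78.4) and of 98 of 171 sites in 1 row (57.3%, 49.5 to 64.8). The difference was 15.2 points (5.69 to 24.6; odds ratio 1.97, 1.26 to 3.09; Fisher's exact test, adjusted p = 0.00437). The shares in 2, 3 and 4 rows were 70.8%, 64.2% and 73.6%, so the 4-row and 5-row sites had similar values. The call was lost with a limit of 300 bp (11.3 points, exact adjusted p = 0.0567), among sites whose score reached the median (11.5 points, exact adjusted p = 0.227) and on chromosomes V to IX alone (6.10 points, exact adjusted p = 0.954). At identical score the upstream odds ratio was 1.34 (conditional exact adjusted p = 0.278).

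Upstream members sat at a median of 199.5 bp from the start codon (interquartile range 156.75 to 303.5), and sites in 1 row at 164 bp (131 to 303.75). In 2, 3 and 4 rows the medians were 183, 179 and 189.5 bp, so the 4-row sites lay near the members. From 150 to 200 bp lay 44 of the 156 upstream members (28.2%), and from 100 to 150 bp lay 31 (19.9%). For sites in 1 row the order was the other way round, with 22 of 98 (22.4%) from 150 to 200 bp and 33 (33.7%) from 100 to 150 bp. From 250 to 300 bp the numbers were 23 (14.7%) and 5 (5.10%). Those bins were not tested, and they count each site of a group of nearby sites separately. The members 258, 272 and 296 bp before MBF1, for instance, all fell in the bin from 250 to 300 bp. The tested band of 100 to 200 bp held 48.1% of upstream members and 56.1% of upstream sites in 1 row (difference -8.05 points, -20.2 to 4.53; exact adjusted p = 0.317), so no difference was detected. The motif lay on the strand of the downstream gene for 40 of 107 members that had 1 gene downstream (37.4%) and for 37 of 79 sites in 1 row (46.8%), a difference of -9.45 points (-23.3 to 4.75; exact adjusted p = 0.317).

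**Figure D3:**
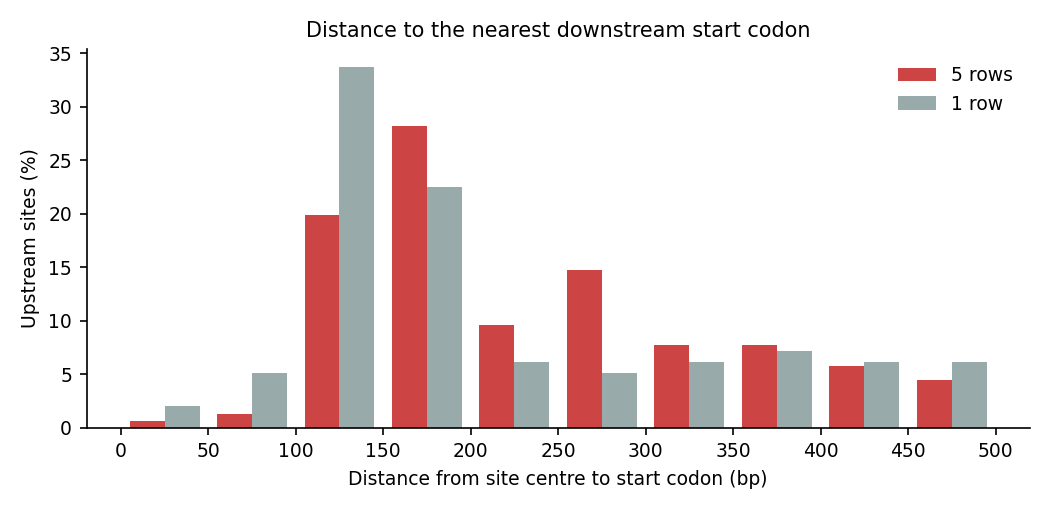
Distance from the site centre to the nearest start codon downstream (bp, x axis) for the 156 members (red) and the 98 sites in 1 row (grey) within 500 bp, in bins of 50 bp, as a share of each class (%, y axis). Members were most frequent from 150 to 200 bp (28.2%) and sites in 1 row from 100 to 150 bp (33.7%).

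A few members lay much closer. The site nearest to a start codon was 46 bp before MRP13, a mitochondrial ribosomal protein gene (VII, 648184 to 648193). Members also lay 84 bp before YBL044W, 93 bp before YGL006W-A and 104 bp before YHR022C-A, the last of which shares a divergent promoter with MYO1, the type II myosin gene (256 bp). In the divergent promoter of YIP4 and EMP24, genes of transport between the endoplasmic reticulum and the Golgi apparatus, a member lay 110 and 176 bp from their starts. That of LDB18, a dynactin subunit gene, and COF1, the cofilin gene, had one at 112 and 140 bp.

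Members came in clusters of Reb1 sites far more often than sites in 1 row did. Another distinct Reb1 site lay within 500 bp of 83 of 215 members (38.6%, 32.1 to 45.5) and of 12 of 171 sites in 1 row (7.02%, 3.68 to 11.9). The difference was 31.6 points (23.7 to 38.9; odds ratio 8.29, 4.27 to 17.4; Fisher's exact test, adjusted p = 7.36e-13). In 2, 3 and 4 rows the shares were 10.4%, 13.6% and 16.7%. Within 100 bp the counts were 71 members (33.0%) and 2 sites in 1 row (1.17%). Neighbours are counted for each other here, so groups of sites with gaps of at most 500 bp were also counted once. Of 171 groups or lone sites holding a member, 39 (22.8%) had 2 or more sites, against 9 of 168 (5.36%) holding a site in 1 row, with 1 group that held both left out. That difference was 17.4 points (10.2 to 24.7; odds ratio 5.20; exact adjusted p = 1.57e-05).

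The spacing inside these groups was short. Among 43 pairs of neighbouring members within 500 bp, the median distance between centres was 26 bp, with a range of 11 to 138 bp. In 32 pairs it was at most 38 bp, the length of the shortest pulldown fragments kept. The distance runs between centres and a pair spans more, so not all 32 pairs fit within such a fragment. In 11 pairs the motifs lay on opposite strands. Sites this close also had the same row count. Of neighbouring Reb1 sites of any class up to 50 bp apart, 47 of 51 pairs had equal counts, and 34 of those were pairs of members. Over 50 and up to 100 bp apart it was 12 of 19, up to 200 bp 1 of 7 and up to 500 bp 5 of 21. Whether a site gained rows from a neighbour that shares its fragments was not tested. Members of a group are therefore not independent, and the 215 members made up 172 such groups or lone sites.

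**Figure D4:**
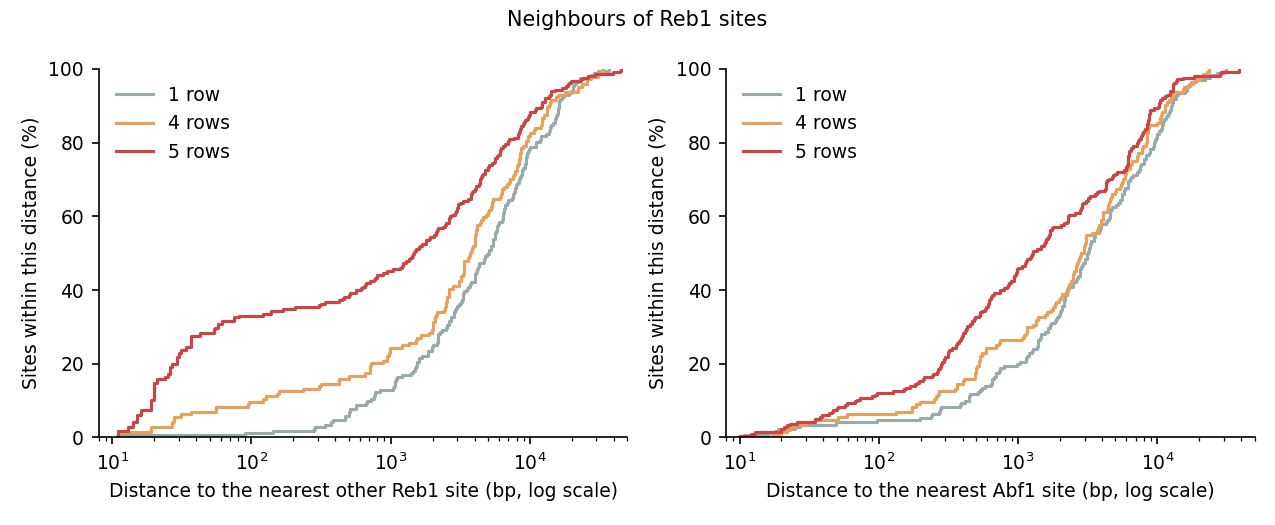
Cumulative share of sites (%, y axes) by distance to the nearest other Reb1 site (left) and the nearest Abf1 site (right), in bp on log axes, for sites in 1, 4 and 5 rows. The 5-row curve on the left reaches 33.0% by 100 bp, where the 1-row curve is at 1.17%, and on the right the medians are 1274 and 3169 bp.

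Of the groups, 24 consisted of members alone and held 59 sites. No gene had more members upstream than MBF1, which encodes a transcriptional coactivator and shares its promoter with BUD7, a gene of vesicle transport. The promoter held 4 members on chromosome XV, starting at 877925, 877939, 877953 and 877977, with scores of 12.2, 13.4, 13.4 and 11.9. They were 244, 258, 272 and 296 bp from the MBF1 start codon, so neighbouring centres were 14, 14 and 24 bp apart, and the last was on the opposite strand. The divergent promoter of TPM1, the major tropomyosin gene, and NIS1 held 3 members 188, 201 and 217 bp before TPM1, with scores of 12.8, 11.9 and 11.3. The promoter of YMR001C-A and MIX17 held 3, at 117, 143 and 198 bp before YMR001C-A, with scores of 11.4, 11.5 and 14.3, so a top-scoring site shared its row count with low-scoring neighbours. PHO91, a vacuolar phosphate transporter gene, had 3 at 225, 262 and 291 bp.

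Other members stood in pairs, at genes of varied roles. ACT1 had members at 372 and 402 bp, which are 30 bp apart, and CDC33, the gene of the cap-binding factor eIF4E, at 198 and 229 bp. TUB4 had a second member 161 bp upstream with a score of 13.4, 26 bp from its top-scoring site and on the other strand. In the divergent promoter of RPA14, an RNA polymerase I subunit gene, and CPR1, the cyclophilin gene, members lay 146 and 166 bp before RPA14. HAS1, an RNA helicase gene of ribosome biogenesis, had members at 173 and 198 bp, and MYO1 at 181 and 256 bp. NQM1, a transaldolase gene, had members at 410 and 464 bp, and AQR1, a plasma membrane transporter gene, at 351 and 412 bp. The divergent promoters of PPH22, a catalytic subunit gene of protein phosphatase 2A, and YDL186W, of MPC3, a mitochondrial pyruvate carrier gene, and YAP1802, and of FRA1 and RRT7 each held a pair, 15, 21 and 19 bp apart. SIN3, a histone deacetylase subunit gene, shares a promoter with RPB11, an RNA polymerase II subunit gene, and members lay 342 and 371 bp before SIN3. REB1 itself had members 125 bp upstream (II, 336939 to 336948, score 12.7) and 263 bp upstream (II, 337077 to 337086, score 13.2). They were 138 bp apart, the widest step between neighbouring members within 500 bp. ABF1 had no member within 500 bp upstream.

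Chromosome ends held another set of groups. Within 20 kb of the first or last annotated gene of a chromosome lay 25 of 215 members (11.6%, 7.67 to 16.7) and 5 of 171 sites in 1 row (2.92%, 0.956 to 6.69). The shares in 2, 3 and 4 rows were 5.20%, 4.32% and 2.78%. This measure was chosen after the positions had been seen and was not tested. Of the 25 members, 23 belonged to 8 groups of 3 or more sites, 1 each on the left arms of II, VI, XI and XII and the right arms of V, VII, VIII and XII. The 8 groups held 36 sites in all.

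These end groups had a shared layout. Each had 1 site with a score of 13.3621, and all sites of a group were on 1 strand, minus on the 4 left arms and plus on the 4 right arms. On 7 of the arms a second site lay 19 or 20 bp nearer the end, and in 6 of those it had a score of 11.1897. A site with a score of 12.569 lay 81 to 85 bp on the inner side of the top site on 7 arms and 44 bp on VI. The row counts differed between arms in spite of this. Every site was in 5 rows on VII, on the left arm of XII and on its right arm, and 5 of 6 were on VI. On II and V the top site and its outer neighbour were in 5 rows, and the inner sites were in 2 to 4. On XI the 12.569 site alone was in 5 rows. On VIII the 5 sites that shared the layout were in 1 or 2 rows, and the member there was a further site 336 bp inward. Repeats that recur near chromosome ends can take reads from each other. How reads matching several places were treated was not given in any source used here. Whether this bears on the row counts was not tested. Without sites within 20 kb of the ends, the difference in sites with a Reb1 neighbour was 24.4 points and that in upstream sites was 23.2 points.

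**Figure D5:**
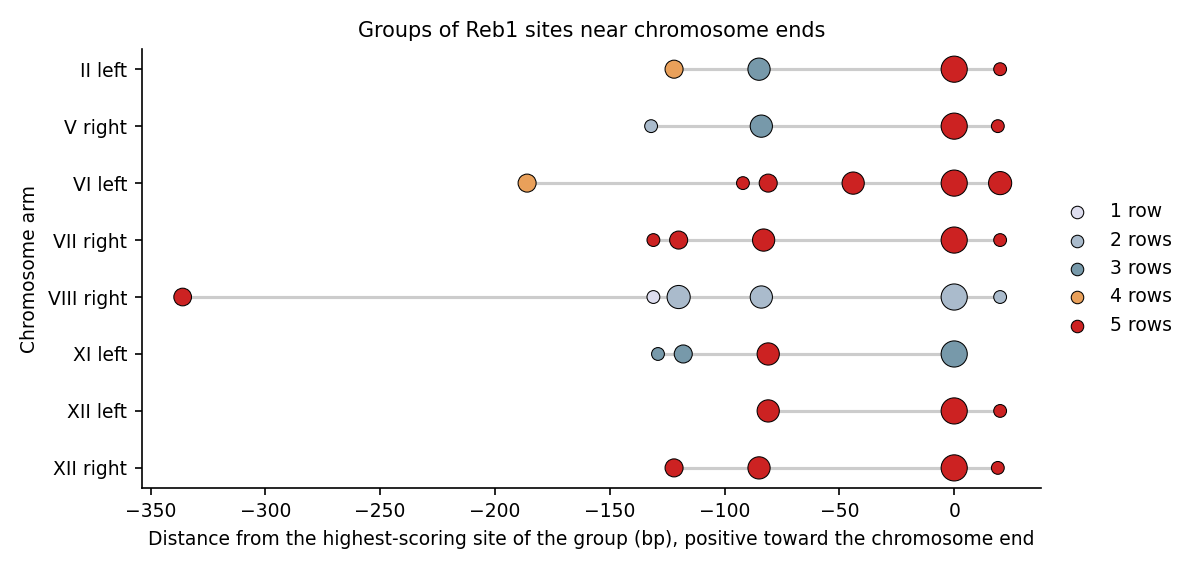
Reb1 sites of the 8 end groups (rows, chromosome arm) by distance from the highest-scoring site of the group (bp, positive towards the chromosome end); colour gives the number of rows and point size rises with the score. The layout recurs on the arms, while every site is in 5 rows on VII, the left arm of XII and the right arm of XII.

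Members lay near Abf1 sites more often than sites in 1 row did. An Abf1 site was within 200 bp, centre to centre, of 33 of 215 members (15.3%, 10.8 to 20.9) and of 9 of 171 sites in 1 row (5.26%, 2.43 to 9.76). The difference was 10.1 points (3.97 to 16.0; odds ratio 3.25, 1.47 to 7.97; Fisher's exact test, adjusted p = 0.00357). The shares in 2, 3 and 4 rows were 8.80%, 8.64% and 9.72%. The nearest Abf1 site was at a median of 1274 bp from a member and 3169 bp from a site in 1 row. The difference was 0.169 points on chromosomes V to IX alone (exact adjusted p = 1) and 9.37 points among sites whose score reached the median (exact adjusted p = 0.184), so the call was lost in both.

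The 33 members lay near 29 distinct Abf1 sites, at a median distance of 50 bp, and 15 were between divergent genes. The Abf1 sites near them were found at every row count. Counted once per member, 2 were in 1 row, 8 each in 2, 3 and 4 rows, and 7 in 5 rows. Of all 1365 Abf1 sites, 343 were in 1 row, 263 in 2, 349 in 3, 267 in 4 and 143 in 5 rows. Those near members were thus less often in 1 row and more often in 5 rows than the full list. This difference was not tested, and some members shared an Abf1 site. The closest pair lay in the divergent promoter of HEK2, an RNA-binding protein gene, and RIB1, a gene of riboflavin synthesis. Its centres were 10 bp apart and the Reb1 score was 11.2. In the divergent promoter upstream of CYC1, the iso-1-cytochrome c gene, they were 12 bp apart, and between ARB1, a gene of ribosome biogenesis, and PHM8 13 bp apart. TIM23 had the closest Abf1 site among top-scoring members, at 21 bp. SIT4, a protein phosphatase gene, had 2 members, 394 and 452 bp upstream, at 23 and 35 bp from an Abf1 site. The 3 members before TPM1 lay 38, 51 and 67 bp from an Abf1 site.

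Inside protein-coding genes lay 28 members (13.0%), against 64 of 171 sites in 1 row (37.4%). Of these, 8 members and 5 sites in 1 row were also within 500 bp upstream of another gene. The members inside genes with the top score were in HIS5, a gene of histidine synthesis, 13.7% of the way along the coding length, and in YLR379W-A, where the site was also 370 bp before SEC61, the gene of the protein translocation channel. Members at 13.2 were inside SLM3, NDI1 and VPH1, a vacuolar proton pump subunit gene. Within the first 20% of the coding length were 5 of the 28, and within the last 20% were 7. An Abf1 site was within 200 bp of 9 of the 28 members inside genes (32.1%, 15.9 to 52.4) and of 24 of the 187 other members (12.8%, 8.40 to 18.5). In 1 row the counts were 3 of 64 and 6 of 107. This split was made after seeing the values and was not tested.

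Members between genes but with no start codon within 500 bp numbered 39, and 22 of those were within 20 kb of a chromosome end. For 14 of the other 17 a start codon lay 563 to 930 bp downstream. A snoRNA gene lay within 500 bp of 5 of 215 members (2.33%), of 4 of 171 sites in 1 row (2.34%) and of 2.44% of all Reb1 sites. For tRNA genes the counts were 2 members (0.930%) and 4 sites in 1 row (2.34%), with 2.55% of all sites. The top-scoring members on VII at 316662 and 609905 were 122 and 213 bp from the snoRNA genes SNR82 and SNR48, and members on XIII were 116 bp from SNR86 and 252 bp from SNR83. The top-scoring member upstream of YTM1 (XV, 832622 to 832631) was 105 bp from the snoRNA gene SNR8. A member on chromosome V (131084 to 131093) lay inside the tRNA gene YNCE0008C.

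By gene, 164 of 6002 protein-coding genes (2.73%, 2.33 to 3.18) had a member within 500 bp upstream, 117 (1.95%) had a site in 1 row and 753 (12.5%) had a site of any count. No gene had both a member and a site in 1 row, but at these shares few would be expected, so no separation of the genes is read from it. Members stood upstream of 2 or more genes in 49 of 215 cases (22.8%). The share was 11.1% in 1 row, 18.8% in 4 rows and 17.9% of all Reb1 sites. By gene, 34 had 2 or more members. The listed ribosome biogenesis genes had a member in 10 of 133 cases (7.52%, 3.66 to 13.4) and a site in 1 row in 4, while 18.0% had a Reb1 site of any row count. That list is not complete, since ARB1, named above as a gene of ribosome biogenesis, is not in it. The 10 were NOP6 (127 bp), ENP2 (152 bp), ARX1 (161 bp), MAK16 (168 bp), HAS1 (173 bp), IMP4 (179 bp), PWP1 (183 bp), YTM1 (187 bp), MAK21 (190 bp) and SDA1 (221 bp). Translation factor and aminoacyl-tRNA synthetase genes had one in 5 of 62 cases (8.06%, 2.67 to 17.8), with 2 for sites in 1 row. For a site of any row count it was 18 of 62 (29.0%), against 12.5% of all genes. The 5 were the initiation factor genes RPG1 (145 bp), GCD11 (160 bp), SUI1 (192 bp) and CDC33 (198 bp), and FRS2 (291 bp), a phenylalanyl-tRNA synthetase gene. The lists were described without a test, and the members' choice was made with their values known.

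The other lists had 0 to 2 genes with a member each, and their shares, to be read beside the 2.73% of all genes, have wide intervals. Proteasome genes had 2 of 34 (5.88%, 0.720 to 19.7), RPT5 (180 bp) and PRE2 (360 bp), and also 2 with a site in 1 row, and 38.2% had a site of any count. RNA polymerase genes had 2 of 31 (6.45%, 0.791 to 21.4), RPA14 (146 bp) and RPB11 (392 bp), and none in 1 row. TFIID, SAGA and general transcription factor genes had 2 of 49 (4.08%), TAF2 (143 bp) and SPT7 (236 bp), a SAGA subunit gene. For sites in 1 row the number was also 2 of 49, and 24.5% had a site of any count. Glycolysis genes had 2 of 17 (11.8%, 1.46 to 36.4), GLK1 (371 bp), the glucokinase gene, and TPI1 (393 bp), the triose phosphate isomerase gene. The GLK1 member also lay 246 bp before PDI1, the protein disulfide isomerase gene. Mitochondrial ribosomal protein genes had 2 of 70 (2.86%), MRP13 (46 bp) and MRPS17 (176 bp), with 3 in 1 row, and cytosolic ribosomal protein genes had 2 of 137 (1.46%), RPL15B (153 bp) and RPL11A (241 bp). Chromatin remodeler genes had 1 of 53 (1.89%), IES5 (135 bp), a subunit of INO80, with 3 in 1 row, and histone genes had 0 of 10.

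According to the series text, the DNA of chromosomes V to IX was reconstituted. On these lay 59 of 215 members (27.4%) and 40 of 171 sites in 1 row (23.4%), a difference of 4.05 points (-4.78 to 12.6; Fisher's exact test, adjusted p = 0.463). Most members therefore lay elsewhere, on DNA whose presence in the reactions the sources used here do not state. On V to IX alone, members exceeded sites in 1 row by 24.0 points between genes and 30.0 points between divergent genes. For a Reb1 neighbour the difference was 36.6 points, and all of these kept their call. The end groups on V, VI, VII and VIII, with 2, 5, 5 and 1 members, lie on these chromosomes. V to IX was not compared without them, so these calls are not independent of the end groups.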

How the data were processed

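Reb1 or Abf1 was pulled down from reconstituted chromatin. The authors deposited 1 list of motif sites per factor for the series, giving each site's position, strand and a score that they did not define. Bowtie and the builds sacCer3 and R64 appear in the submitters' processing notes. No source used here gives the motif scan, peak calls, pooling of samples or meaning of repeated rows, nor says whether starts count from 0 or 1, so positions are uncertain by 1 bp.

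Identical rows were counted as 1 site, giving 942 Reb1 sites (2808 rows) and 1365 Abf1 sites (3699 rows). Centres were placed against RefSeq R64 genes, 6002 of them protein-coding. The table holds mostly coding extents, which makes each distance one to the start codon. Gene strand came from systematic names. Shares were compared with two-sided Fisher's exact tests, checked on simulated data, with Benjamini-Hochberg adjustment and a threshold of 0.05. The simulated sites were independent, so that check does not cover the grouping of sites. Since sites are no replicates, p-values describe this list. The members, lists and tests were chosen with earlier results of these data known. Genes were named for the highest and lowest scores, the nearest start codons and Abf1 sites, list membership and pairs of members, with REB1 and ABF1. Motif matches and base composition were planned but not analysed here. Python 3.11.15, pandas 2.3.3 and scipy 1.17.1 were used.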

Additional observations from a re-analysis of the deposited data

How the results depend on the processing

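Of 67 alternative settings over these comparisons, 57 kept the direction and the side of the threshold. That number includes settings of comparisons that had not passed the threshold at first, such as tandem genes and motif strand. In 6 settings a call that had passed was lost. Differences are in percentage points, 5 rows minus 1 row. On chromosomes V to IX alone the upstream difference was 6.10, the Abf1 difference 0.169, and the tandem difference reversed to -3.52. At or above the median score the upstream difference was 11.5 and the Abf1 difference 9.37, neither past the threshold, with 126 and 61 sites left. With 300 bp the upstream difference was 11.3. With 4 or 5 rows against 1 or 2 rows, the tandem difference reversed to -1.03 and the strand difference to 0.220, and neither had passed before. At identical score, keeping the highest-scoring site of each group gave an odds ratio of 1.57 between genes, which did not pass the threshold. Rounding scores to whole numbers brought the upstream odds ratio to 1.68, past the threshold (conditional exact adjusted p = 0.0295). The causes of these changes were not tested. Counting 1 site per group within 500 bp, the highest-scoring one, left the differences at 21.4 between genes, 16.5 between divergent genes and 18.5 upstream. This setting, the 1 that leaves out chromosome ends, and the neighbour counts within 100 bp and by group were chosen after seeing the data. No paired analysis was possible because the lists carry no sample. Read depth and replicate spread cannot be read from the lists.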
